A study of Mus musculus with 10 samples.

Results

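The family of miR-148a, miR-148b and miR-152 of the mouse comprises the microRNA genes Mir148a, Mir148b and Mir152, each of which gives a 5p and a 3p mature microRNA. Its 6 members are the rows named mmu-miR-148a-5p, mmu-miR-148a-3p, mmu-miR-148b-5p, mmu-miR-148b-3p, mmu-miR-152-5p and mmu-miR-152-3p (mmu- is left out below) among the 1302 mature microRNA rows of a small RNA count table, and they were taken by name. The counts came from 10 libraries of CD43- splenic B-cells from wt mice, from mice lacking the 3'RR, the enhancer region downstream of the immunoglobulin heavy chain locus, and from mice lacking Eµ, the intronic enhancer of that locus. The mice of all 3 genotypes shared an inbred background, per the methods of the study, which name the Eµ line EµMAR-deficient and describe the mice used for cultures as adults of both sexes. CD43 is absent from most resting mature B-cells, so that the depletion leaves mainly these cells. Per the labels, cells were kept in medium for 2 days with 5 µg/ml LPS or without it (non-stimulated, NS), while the methods speak of cells taken before and after stimulation. An effect of culture itself therefore cannot be told apart from that of LPS. The wt and 3'RR-deficient groups had 2 libraries in each condition and the Eµ-deficient group had 1, and each library was a pool of cells from 2 mice, so p-values measure the spread between these pools.

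MicroRNAs are cut from a hairpin, and the arm that is retained guides an Argonaute protein to messenger RNAs that pair with its seed, the bases from position 2 to 8. Members of a family with a common seed are expected to share many targets, and for the 3p arms of miR-148a, miR-148b and miR-152 these include Dnmt1, the maintenance DNA methyltransferase. In B-cells miR-148a is known as a microRNA of plasma cells that promotes their differentiation and represses Bach2, a transcription factor that holds back the plasma cell programme. LPS activates B-cells through Toll-like receptor 4 and drives them to divide, to switch class and to become plasmablasts.

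The mature sequences from RefSeq (GRCm38.p6, all 6 at the positions given in the count table) are shown because the 3p arms share their seed, which is in capitals.
miR-148a-3p: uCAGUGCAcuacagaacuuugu
miR-148b-3p: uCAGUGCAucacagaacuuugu
miR-152-3p: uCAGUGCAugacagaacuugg
miR-148a-5p: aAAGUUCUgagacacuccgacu
miR-148b-5p: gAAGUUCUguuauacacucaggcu
miR-152-5p: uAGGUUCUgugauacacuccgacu

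Among 1679 mouse mature microRNAs of RefSeq, the seed CAGUGCA was found only in the 3p arms of this family. The 5p arms of miR-148a and miR-148b shared the seed AAGUUCU with each other and with no other entry, and miR-152-5p had the seed AGGUUCU alone. Counted from the 5′ end, miR-148a-3p and miR-148b-3p differed at 2 of 22 positions, C9U and U10C from the first to the second. Against miR-152-3p, miR-148a-3p differed at 3 of 21 positions (C9U, U10G and U20G) and miR-148b-3p at 2 of 21 (C10G and U20G). The handling of reads that match more than 1 member is not given in the sources used here, so exchange of reads between these near-identical arms cannot be told apart from their expression. The 3p arms of miR-148a and miR-148b have the same length of 22 nt and the same GC content of 40.9%.

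The 3 genes lie on different chromosomes. Mir148a (chr6:51269812-51269910, minus strand, GRCm38) is intergenic in GENCODE M21, 13.6 kb from the nearest other gene, the lincRNA Gm32479. Mir148b (chr15:103285125-103285221, plus strand) lies in intron 1 of Copz1-201, and Mir152 (chr11:96850393-96850465, plus strand) lies in intron 1 of Copz2-201. Copz1 and Copz2 are paralogues that encode zeta subunits of the COPI vesicle coat. Neither hairpin overlapped an annotated exon of its host gene, which is on the same strand.

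The libraries held from 3482540 to 18144016 counts, of which 51.4% to 82.1% were microRNA counts, so that 3 counts corresponded to between 0.263 and 0.999 CPM (microRNA counts of a library scaled to a common library size by TMM). The second NS libraries of wt and of 3'RR-deficient mice were the smallest and stood apart from the first ones alike in both genotypes. Across 720 microRNA features, the differences between the second and the first NS library correlated between wt and 3'RR-deficient cells with r = 0.666, a description over features that share the libraries. For the main comparisons, values without both of these libraries are also given. Of the 5 listed B-cell microRNAs (miR-150-5p, miR-142a-3p, miR-142a-5p, miR-155-5p and miR-181a-5p), none was at 0 in any library. Some of them differed widely between the first and second NS libraries. miR-142a-5p had 177522 and 7357 CPM in wt and 84931 and 6191 CPM in 3'RR-deficient NS libraries, and miR-142a-3p had 9587 and 265 CPM in wt and 3339 and 234 CPM in 3'RR-deficient ones. miR-150-5p went the other way, with 39878 and 56331 CPM in wt and 47857 and 51535 CPM in 3'RR-deficient NS libraries, as did miR-181a-5p with 22472 and 43885 CPM and with 29561 and 46255 CPM. The part of these differences in the results for the family was not tested. In such bulk RNA, fewer cells of a type and less RNA per cell cannot be told apart.

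With LPS the most abundant member was miR-148a-3p, while in 3 of the 5 NS libraries miR-148b-3p was more abundant. In the NS libraries miR-148a-3p had 3385 and 241 CPM in wt, 2749 and 587 CPM in 3'RR-deficient and 9397 CPM in Eµ-deficient cells. With LPS it had 18027 and 24079 CPM in wt, 12870 and 28969 CPM in 3'RR-deficient and 14201 CPM in Eµ-deficient cells. All 5 LPS libraries were thus above all 5 NS libraries, and the NS level was highest in Eµ-deficient cells and lowest in the second wt and 3'RR-deficient libraries. Its rank among the 1302 mature microRNA rows was between 22 and 98 without LPS and between 10 and 16 with LPS.

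The 5p arm of the same hairpin, miR-148a-5p, had 13.6 and 8.66 CPM in wt, 12.7 and 6.81 CPM in 3'RR-deficient and 44.6 CPM in Eµ-deficient NS libraries. With LPS the 5p arm had 711 and 453 CPM in wt, 363 and 299 CPM in 3'RR-deficient and 409 CPM in Eµ-deficient cells. The conditions did not overlap here either, and the Eµ-deficient NS library was again the highest of the 5 NS libraries. Over the 10 libraries the log2 levels of both arms of miR-148a correlated with r = 0.882, a description of points that share the contrast of LPS with NS.

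The paralogue miR-148b-3p went the other way in the libraries that stood apart. It had 2796 and 6952 CPM in wt, 3135 and 8224 CPM in 3'RR-deficient and 2505 CPM in Eµ-deficient NS libraries. With LPS it had 2025 and 2914 CPM in wt, 2887 and 3724 CPM in 3'RR-deficient and 1987 CPM in Eµ-deficient cells. The high values were those of the second NS libraries, and the other 8 libraries lay between 1987 and 3724 CPM with LPS and NS values interleaved. Its 5p arm, miR-148b-5p, was scarce, at 2 to 37.8 CPM without LPS and 12.6 to 28.6 CPM with LPS, and its lowest value (6 counts) was in the second wt NS library.

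Of the remaining gene, miR-152-3p had 74.7 and 18.6 CPM in wt, 88.8 and 46.8 CPM in 3'RR-deficient and 358 CPM in Eµ-deficient NS libraries. With LPS it had 31.7 and 35.2 CPM in wt, 46.7 and 50.4 CPM in 3'RR-deficient and 98.2 CPM in Eµ-deficient cells. The Eµ-deficient libraries held the highest values, above each of the other 8 libraries, while LPS and NS values of the other genotypes overlapped. The 5p arm, miR-152-5p, had 41 counts in the Eµ-deficient NS library, 3 counts in the second 3'RR-deficient LPS library and at most 1 count in each of the other 8.

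**Figure D1:**
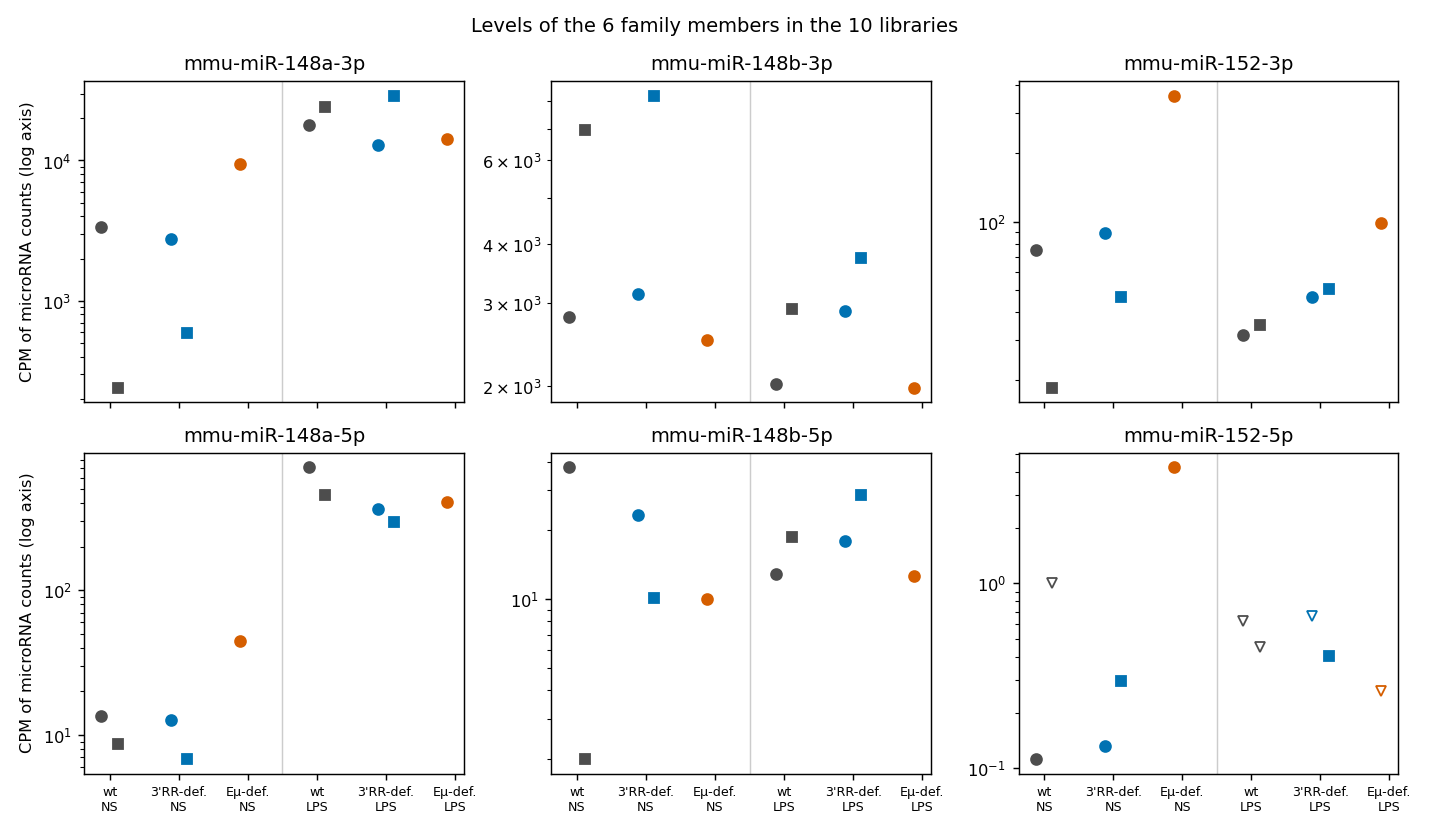
Level of each of the 6 family members in the 10 libraries, in CPM of microRNA counts on log axes, by genotype (wt, 3'RR-deficient, Eµ-deficient) and condition (NS to the left of the grey line, LPS to the right). Circles are the first and squares the second library of a group, and open triangles mark libraries with 0 counts at the level of 3 counts. For miR-148a-3p the 5 LPS libraries (12870 to 28969 CPM) all lie above the 5 NS libraries (241 to 9397 CPM).

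In the order of levels without LPS, miR-148b-3p and miR-148a-3p could not be separated, with means of 4874 ± 2939 and 1813 ± 2223 CPM (SD, n = 2) in wt and of 5679 ± 3598 and 1668 ± 1529 CPM (SD, n = 2) where the 3'RR was deleted. With LPS miR-148a-3p came first in every library, with means of 21053 ± 4280 CPM (SD, n = 2) in wt and 20919 ± 11384 CPM (SD, n = 2) for 3'RR-deficient cells. It was followed by miR-148b-3p at 2469 ± 628 and 3305 ± 592 CPM and by miR-148a-5p at 582 ± 182 and 331 ± 45.7 CPM. The levels of miR-152-3p (33.5 ± 2.52 and 48.6 ± 2.66 CPM) were above those of miR-148b-5p (15.9 ± 4.18 and 23.3 ± 7.56 CPM) in all 4 of these LPS libraries. Without LPS, miR-152-3p was above miR-148b-5p in all 5 libraries, while in wt miR-148b-5p (19.9 ± 25.3 CPM) overlapped with miR-148a-5p (11.1 ± 3.48 CPM) (SD, n = 2). Levels of different microRNAs also carry the ligation and amplification bias of each sequence, and this order is one of reads.

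The first comparison asked which members respond to LPS. Both arms of miR-148a were higher with LPS over wt and 3'RR-deficient cells together, and no other member passed in the fit without a replicate block, that is without terms for same-numbered libraries. In the additive fit of these 8 libraries by edgeR's quasi-likelihood test with Benjamini-Hochberg adjustment, 157 of 720 microRNA features were called at an adjusted p under 0.05, that is 21.8%, against 2 of the 5 members tested. The log2 fold change was 5.41 for miR-148a-5p (SE 0.52, adjusted p 0.000184), which ranked second of 720 by p, and 3.59 for miR-148a-3p (SE 0.78, adjusted p 0.00994). For the others it was -0.92 for miR-148b-3p (SE 0.47, adjusted p 0.185), -0.47 for miR-152-3p (SE 0.48, adjusted p 0.508) and 0.07 for miR-148b-5p (SE 0.69, adjusted p 0.944). The median over the 5 members was 0.07, the same as over all 720 features.

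Without both second NS libraries, a choice made after the data were seen, miR-148a-5p (4.98, adjusted p 2.7e-05) and miR-148a-3p (2.67, adjusted p 0.000382) remained past the threshold, with 217 of 824 features called. In that fit miR-152-3p was also lower with LPS (-1.09, adjusted p 0.0282), and miR-148b-3p was at -0.14 (adjusted p 0.759). With all 8 libraries and the replicate block within culture condition, on the other hand, miR-148b-3p passed at -0.75 (adjusted p 0.00762). That fit called 336 of 720 features, against 157 of 720 without a block, so this call does not single out miR-148b-3p. The same member also passed with a correction for the GC content of the microRNAs (-2.03, adjusted p 0.0372). With all features of the table tested together, which includes tRNA and other small RNA rows, miR-148a-3p was at 2.66 and no longer passed (adjusted p 0.116). The range of its adjusted p when 1 of the 8 libraries was left out was 0.00453 to 0.0347.

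Within wt, 5 of 720 features (0.694%) were called, and miR-148a-5p was the only member among them, at 5.79 on the log2 scale (SE 0.81, adjusted p 0.00999). Its call was lost without the second wt NS library (5.50) or without the first wt LPS library (5.32). Its value was 5.51 without both second NS libraries. Fits with a library left out have 1 library in a group, so their spread comes from the other groups. Without both second NS libraries no spread between NS libraries of a genotype remains. Calls in such fits therefore do not measure stability. For miR-148a-3p the change in wt was 3.66 with an SE of 1.19 (adjusted p 0.122). Dropping the first wt NS library moved this value to 6.10, and dropping the second moved it to 2.69. With the first 3'RR-deficient NS library dropped it became 3.57, and with both second NS libraries dropped 2.71. Only values are given for these fits, since they too take their spread from the other groups. With the replicate block within culture condition, 182 of 720 features were called in wt and miR-148a-3p was among them, at 4.54 (adjusted p 2.9e-06). The ratios of same-numbered wt libraries were 2.41 and 6.64 (log2) for miR-148a-3p, against 5.68 and 5.66 for miR-148a-5p.

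Within 3'RR-deficient cells, 7 of 720 features (0.972%) were called, again with miR-148a-5p as the only member, at 5.04 (SE 0.78, adjusted p 0.024). That call was lost without the second 3'RR-deficient NS library (4.52) or without the first wt LPS library (5.01). The value of miR-148a-5p was 4.48 without both second NS libraries. As in wt, these fits have 1 library in a group, so that calls in them do not measure stability. Here miR-148a-3p changed by 3.52 (SE 1.19, adjusted p 0.155). Dropping the first 3'RR-deficient NS library moved this value to 4.84, and dropping the second moved it to 2.69. With the first wt NS library dropped it became 3.53, and with both second NS libraries dropped 2.64. The block within culture condition gave 183 called features in 3'RR-deficient cells, with miR-148a-3p at 3.84 (adjusted p 1.34e-05). Same-numbered libraries gave log2 ratios of 2.23 and 5.62 for miR-148a-3p and of 4.81 and 5.40 for miR-148a-5p. The 3 other tested members had an adjusted p of 0.466 or more in either genotype, and in 3'RR-deficient cells their values ran from -0.84 (miR-148b-3p) to 0.38 (miR-148b-5p).

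In Eµ-deficient cells, with 1 library per condition and therefore no test, the log2 ratio of LPS to NS was 0.60 for miR-148a-3p and 3.19 for miR-148a-5p. Both were below the ratios in wt and 3'RR-deficient cells, beside a higher NS level of both arms. For the other members the Eµ-deficient ratios were -0.33 for miR-148b-3p, 0.32 for miR-148b-5p and -1.86 for miR-152-3p, and miR-152-5p had 41 counts without and 0 counts with LPS. Whether the Eµ-deficient ratio differs from that of the other genotypes was not tested.

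The 2 called members were also the only ones whose 5 LPS and 5 NS libraries did not overlap, among 5 with at least 10 counts in at least 2 libraries. In the same count over all microRNA features, 149 of 798 (18.7%) did not overlap. Of a list of 15 other microRNAs named for B-cell activation and plasma cell differentiation, chosen with earlier results of these data known, 10 passed over both genotypes, 6 higher and 4 lower, against 21.8% of all features. One of the 4 lower was miR-223-3p (-3.49, adjusted p 0.00261), a microRNA of myeloid cells. Their largest increase was that of miR-155-3p (5.56, adjusted p 0.000184), the minor arm of the microRNA of activated B-cells. Within wt and within 3'RR-deficient cells 1 of the 15 passed, against 0.694% and 0.972% of all features.

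**Figure D2:**
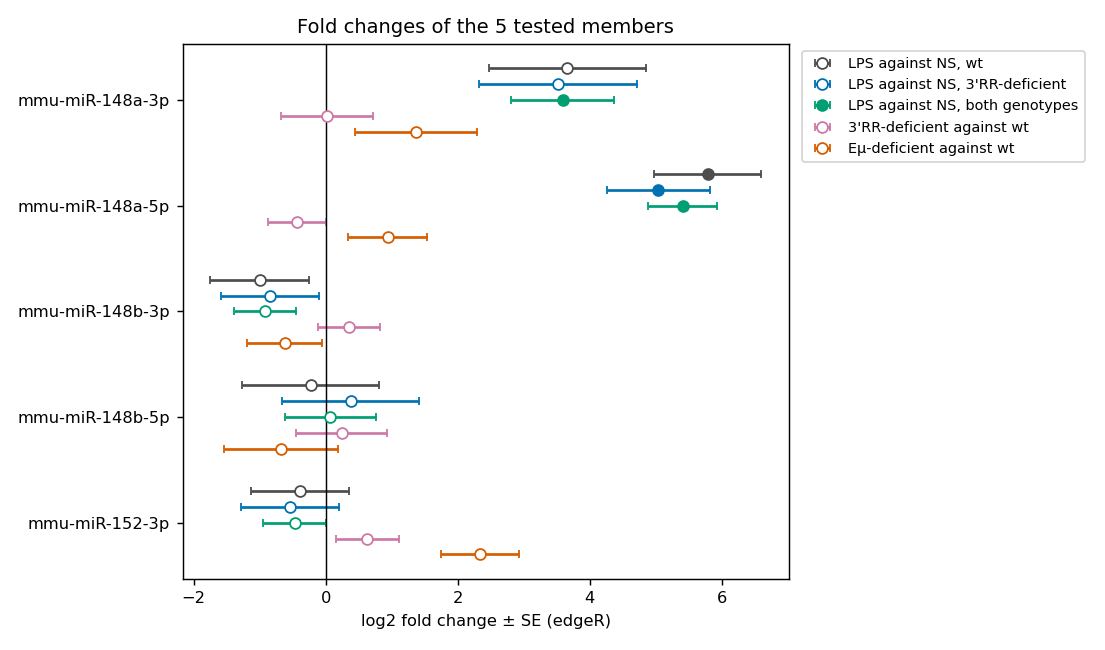
Log2 fold change with SE by edgeR of the 5 members tested in each of 5 comparisons: LPS against NS within wt, within 3'RR-deficient and over both, and 3'RR-deficient and Eµ-deficient cells against wt over both conditions. The sixth member, miR-152-5p, was tested only for Eµ-deficient cells and is not shown. Filled points have an adjusted p under 0.05 and open points do not. The filled points are those of miR-148a-5p in all 3 LPS comparisons (5.04 to 5.79) and of miR-148a-3p over both genotypes (3.59).

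The count table also has rows for the hairpin transcripts, and how reads were divided between these rows and those of the mature arms is not given in the sources used here. The Mir148a hairpin (ENSMUST00000083571) is shown with its 5p and 3p arms in capitals, in this order, because its row followed the arms.
Mir148a: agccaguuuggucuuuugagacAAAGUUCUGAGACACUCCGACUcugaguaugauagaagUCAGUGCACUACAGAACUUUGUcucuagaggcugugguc
It had 0 counts in all 4 wt and 3'RR-deficient NS libraries and 6 counts in the Eµ-deficient one. With LPS it had 98 to 250 counts in the wt and 3'RR-deficient libraries and 530 in the Eµ-deficient one, so that the conditions did not overlap. The Mir148b hairpin (ENSMUST00000083626) had 1 count in 1 of the 5 NS libraries and 0 in the rest, and it had 21, 23, 6, 14 and 11 counts in the wt, 3'RR-deficient and Eµ-deficient LPS libraries. These counts were few, but the 5 LPS libraries again lay above the 5 NS libraries. The Mir152 hairpin (ENSMUST00000083581) had at most 7 counts in any library, with LPS and NS overlapping.

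The next comparison asked which member supplied the shared 3p seed. The share of miR-148a-3p in the summed counts of the 3p arms was 54.1% and 3.34% in wt, 46% and 6.63% in 3'RR-deficient and 76.6% in Eµ-deficient NS libraries. With LPS the share was 89.8% and 89.1% in wt, 81.4% and 88.5% in 3'RR-deficient and 87.2% in Eµ-deficient cells. The LPS libraries were close to each other while the NS libraries ranged from a family made up almost wholly of miR-148b-3p to one led by miR-148a-3p. Wilson 95% confidence intervals of these shares were no wider than a percentage point, so that counting error was small beside the spread between libraries.

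The mean share was 87.2% ± 3.35 with LPS and 37.4% ± 31.6 without (SD, n = 5), a difference of 49.8 percentage points. The two-sided exact permutation test over all splits into 5 and 5 libraries gave p = 0.00794, the smallest these splits allow, and an adjusted p of 0.0317 over the 4 within-family values tested. All 5 LPS libraries were above all 5 NS libraries. Without both second NS libraries the difference was 28.3 percentage points (adjusted p 0.0357 by the exact permutation test). With splits made within genotype only the exact p was 0.0278 (adjusted p 0.111), and with wt and 3'RR-deficient libraries alone the difference was 59.7 percentage points (exact p 0.0286, adjusted p 0.114). Both unadjusted values are the smallest those splits allow, so that neither adjusted value tells of stability. When any 1 of the LPS libraries was left out, the exact adjusted p was 0.0635.

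The summed level of the 3p arms was 6256 and 7212 CPM in wt, 5973 and 8858 CPM in 3'RR-deficient and 12260 CPM in Eµ-deficient NS libraries. With LPS the sum was 20084 and 27028 CPM in wt, 15803 and 32743 CPM in 3'RR-deficient and 16286 CPM in Eµ-deficient cells. The sums of first and second NS libraries lay closer together than the single members did, because miR-148a-3p and miR-148b-3p were displaced in opposite directions. The next differences use the scaling of the fit of the 8 wt and 3'RR-deficient libraries, and so depart a little from those of the CPM values above, which were scaled over all 10 libraries. From the first to the second NS library miR-148a-3p fell by 3.60 in wt and fell by 2.28 in 3'RR-deficient cells on the log2 scale. In the same pairs of libraries miR-148b-3p was higher by 1.52 in wt and 1.34 in 3'RR-deficient cells, against a median of -0.33 and -0.16 and an SD of 1.96 and 1.78 over 720 features. The ratio of miR-148b-3p to miR-148a-3p reads was 28.8 in the second wt and 14 in the second 3'RR-deficient NS library, against 0.826 and 1.14 in the first ones.

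**Figure D3:**
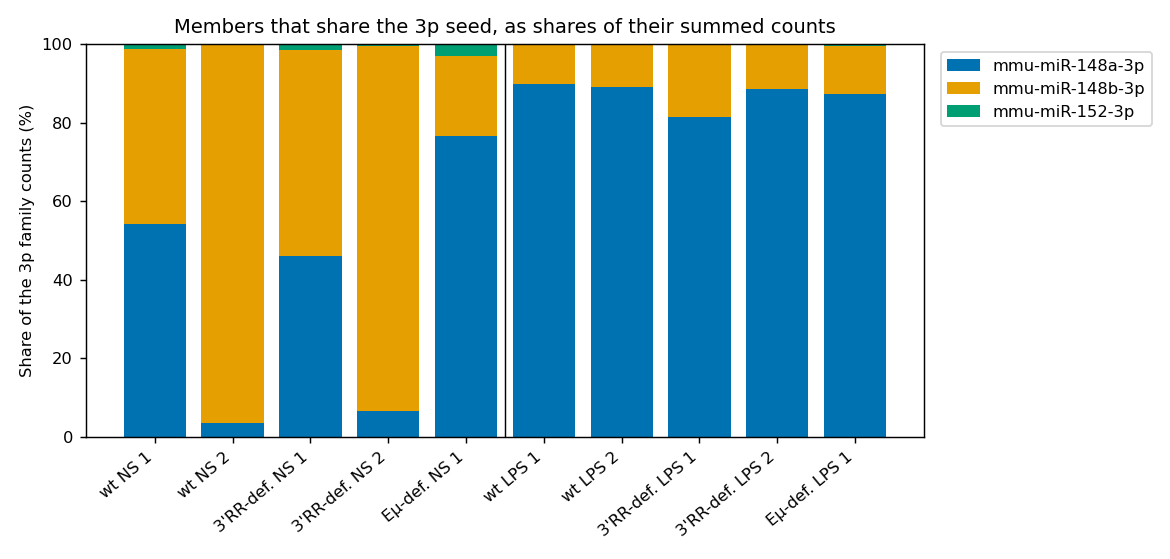
Share of miR-148a-3p, miR-148b-3p and miR-152-3p in their summed read counts (%), stacked for each of the 10 libraries, with NS libraries to the left and LPS libraries to the right of the line. In the LPS libraries 81.4% to 89.8% of the reads were miR-148a-3p, and in the second wt and 3'RR-deficient NS libraries 96.4% and 92.8% were miR-148b-3p.

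The proportion of the arms within a hairpin was compared next, since it does not depend on library scaling. Of the reads of both miR-148a arms, the 5p arm took 0.4% and 3.47% in wt, 0.459% and 1.15% in 3'RR-deficient and 0.473% in Eµ-deficient NS libraries. With LPS it took 3.79% and 1.85% in wt, 2.75% and 1.02% in 3'RR-deficient and 2.8% in Eµ-deficient cells. Apart from the second wt and 3'RR-deficient NS libraries, which rest on 26 and 23 5p counts, every NS library was below every LPS library. The mean log2 ratio of 5p to 3p counts was -5.45 ± 0.74 with LPS and -6.92 ± 1.35 without (SD, n = 5), a difference of 1.47 (two-sided exact permutation test, p = 0.0794, adjusted p 0.159). Without both second NS libraries the difference was 2.36 (exact adjusted p 0.0357), and it was 2.00 (exact adjusted p 0.0476) without the second wt NS library alone.

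For miR-148b the 5p arm took 0.617% to 0.762% of the reads in all 5 LPS libraries. Without LPS it took 1.34%, 0.74% and 0.4% in the first wt, the first 3'RR-deficient and the Eµ-deficient library, and 0.0287% and 0.122% in the second wt and 3'RR-deficient ones. The difference of the log2 ratio was 1.27 (exact p = 0.317, adjusted p 0.317), and it turned to -0.16 without both second NS libraries (exact adjusted p 0.643). For miR-152 the difference was -1.24 (exact p = 0.262, adjusted p 0.317), with 3 or fewer 5p counts in 9 of 10 libraries. Where the 5p count was 0, the ratio rests on the prior count of 0.5. In the second NS libraries the share of the 5p arm was thus higher than in the first ones for miR-148a and lower for miR-148b.

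**Figure D4:**
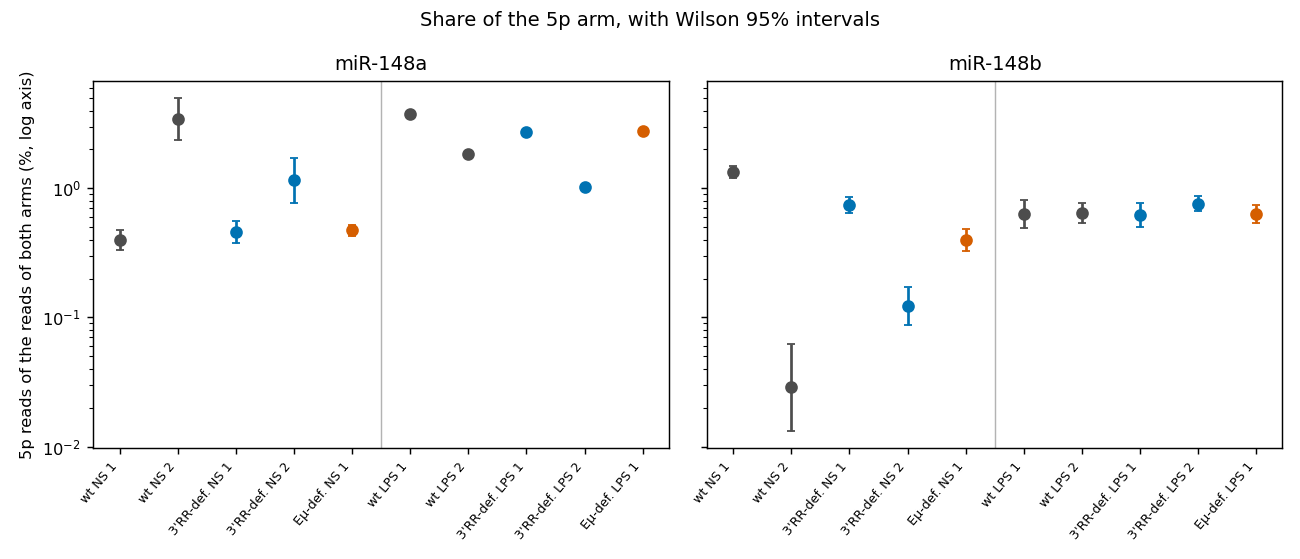
Share of 5p reads among the reads of both arms (%, log axis) for miR-148a and miR-148b in each library, with Wilson 95% confidence intervals, which cover counting error only. NS libraries stand to the left and LPS libraries to the right of the grey line. For miR-148b the LPS libraries lie between 0.617% and 0.762%, while the NS libraries span 0.0287% to 1.34%.

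The third comparison asked whether deletion of the 3'RR changed the family. No member was called in 3'RR-deficient against wt cells, by edgeR or by the DESeq2 Wald test, and none had an unadjusted p under 0.05 in the edgeR fit without a replicate block. Over both conditions 1 of 720 features (0.139%) was called by edgeR, 2 by DESeq2, and 21 had an unadjusted p under 0.05. The log2 fold changes were -0.44 for miR-148a-5p (95% interval -1.41 to 0.53), 0.02 for miR-148a-3p (-1.52 to 1.56), 0.24 for miR-148b-5p (-1.28 to 1.76), 0.35 for miR-148b-3p (-0.68 to 1.38) and 0.63 for miR-152-3p (-0.43 to 1.69), each with an adjusted p of 0.997. These intervals leave room for changes of more than 2-fold in either direction for both miR-148a-3p and miR-148b-5p. With the replicate block within culture condition, 7 features and no member were called by edgeR, and the unadjusted p was 0.0292 for miR-152-3p over both conditions (0.71, adjusted p 0.517) and 0.0395 for miR-148a-5p with LPS (-0.77, adjusted p 0.747). Without both second NS libraries the changes over both conditions were -0.43 for miR-148a-5p, 0.02 for miR-148a-3p, 0.28 for miR-148b-5p, 0.49 for miR-148b-3p and 0.60 for miR-152-3p, with edgeR adjusted p from 0.838 to 0.986, and 2 of 824 features were called.

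Without LPS, 0 of 720 features (0%) were called by edgeR and 1 by DESeq2, with 9 at an unadjusted p under 0.05. With LPS, 0 of 720 features (0%) were called by edgeR and 2 by DESeq2, with 15 at an unadjusted p under 0.05. Within a single condition the member value farthest from 0 was -0.80, for miR-148a-5p with LPS. The difference of the LPS responses, 3'RR-deficient minus wt, was called for 0 of 720 features (0%) by edgeR and for 0 by DESeq2, with 5 at an unadjusted p under 0.05. It was -0.75 (SE 0.94, adjusted p 1) for miR-148a-5p. Same-numbered libraries put miR-148a-5p at -0.97 and -0.60 (log2, 3'RR-deficient over wt) with LPS and at -0.10 and -0.33 without.

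The last comparison set Eµ-deficient cells against wt over both conditions, with additive terms for genotype and stimulation in a fit of 10 libraries. The member with the smallest p was miR-152-3p, which ranked 20 of 988 features by edgeR. The next ranks, 21 and 22, were those of miR-125b-5p (log2 fold change 2.45, edgeR adjusted p 0.0635) and the myeloid miR-223-3p (2.12, adjusted p 0.0635). None of the 15 other listed microRNAs was called. Of 988 features 16 (1.62%) were called, and none of the 6 members tested was among them by edgeR. In that fit 2 members, both arms of miR-152, had an unadjusted p under 0.05, as had 113 of the 988 features. By DESeq2 1 member was called. The 10 alternatives other than single libraries left out called 12 to 156 features. The fitted log2 fold change of miR-152-5p was 4.70 (SE 2.20, adjusted p 0.43), which rests on its 41 counts in the Eµ-deficient NS library and is no bound, since the other 9 libraries held at most 3 counts each. The log2 fold change of miR-152-3p was 2.34 (SE 0.59, adjusted p 0.0617). It passed in 7 of the 9 alternatives that kept all libraries, with values from 2.14 to 2.74 and adjusted p from 0.000702 to 0.101, and it was 2.27 (adjusted p 0.00135) without both second NS libraries. Without the Eµ-deficient NS library it was 1.54 (adjusted p 0.599), and without the Eµ-deficient LPS library 3.21 (adjusted p 0.204).

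Against the single wt libraries of the same condition, miR-152-3p in Eµ-deficient cells was higher by 2.26 and 4.24 without LPS and by 1.62 and 1.47 with LPS (log2). It was the only 1 of 5 members whose Eµ-deficient libraries did not overlap with the other 8, a property shown by 94 of 798 features (11.8%). The 41 counts of the 5p arm in the Eµ-deficient NS library against 3 counts in the 4 other NS libraries gave a rate ratio of 32.4 (exact 95% interval 10.3 to 163, counting error only), and the 5p arm had 0 counts in the Eµ-deficient LPS library, which allows up to 0.263 CPM.

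For the other members the Eµ-deficient value was 1.37 for miR-148a-3p (SE 0.92, adjusted p 0.593), 0.94 for miR-148a-5p (SE 0.60, adjusted p 0.574), -0.62 for miR-148b-3p and -0.68 for miR-148b-5p (adjusted p 0.728 and 0.817). Without LPS, miR-148a-3p of the Eµ-deficient cells was above both wt libraries by 1.47 and 5.28, and with LPS it was below both, at -0.34 and -0.76 (log2). The difference between the conditions was not tested. The same held for miR-148a-5p, at 1.69 and 2.33 without and at -0.80 and -0.15 with LPS. Without the Eµ-deficient NS library the fitted values turned to -0.60 for miR-148a-3p and to -0.40 for miR-148a-5p. Without both second NS libraries they were 0.93 (adjusted p 0.321) and 0.87 (adjusted p 0.344).

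The study cites an earlier report that the Eµ-deficient line lacks follicular B-cells. Markers of other cells of the spleen differed between these libraries, not all in the same way. The 3 erythroid microRNAs (miR-451a, miR-144-3p and miR-486a-5p) summed to 2500 to 6581 CPM in the wt and 3'RR-deficient NS libraries and to 138 to 955 CPM with LPS. Of these 3, miR-486a-5p alone did not overlap between the conditions in these 8 libraries (841 to 6202 CPM without and 43.8 to 377 CPM with LPS), while miR-451a (205 to 3719 and 83.4 to 564 CPM) and miR-144-3p (2.66 to 119 and 10.4 to 39 CPM) overlapped. The Eµ-deficient sums were 7919 and 3570 CPM, the highest of each condition, and all 3 erythroid markers were highest in the Eµ-deficient library among the LPS libraries. Among the NS libraries this held for miR-451a (4514 CPM) only, as miR-144-3p had 61.3 CPM against 119 CPM in the first wt library and miR-486a-5p 3343 CPM against 6202 CPM in the second 3'RR-deficient library. The myeloid microRNA miR-223-3p had 463 to 1923 CPM without and 76.2 to 143 CPM with LPS in wt and 3'RR-deficient cells, and 4939 and 496 CPM in Eµ-deficient cells. The sum of 5 stromal and endothelial microRNAs was 728 to 2856 CPM without and 616 to 944 CPM with LPS, and 1968 and 1445 CPM in Eµ-deficient cells. The Eµ-deficient NS sum lay inside the range of the other NS sums, and the Eµ-deficient LPS sum was above the other LPS sums. The members of this list went different ways. In wt and 3'RR-deficient cells NS and LPS values did not overlap for miR-143-3p (up to 894 CPM without and 15.7 to 62.7 CPM with LPS), miR-199a-3p (10.1 to 48.3 and 1.77 to 3.33 CPM) and miR-145a-5p (3.43 to 19.3 and 0 to 1.67 CPM), and they overlapped for miR-10b-5p and miR-126a-3p. In the Eµ-deficient LPS library miR-143-3p (807 CPM), miR-199a-3p (108 CPM) and miR-145a-5p (20.2 CPM) were above the other LPS libraries, whereas miR-10b-5p (496 CPM) and miR-126a-3p (13.7 CPM) were below them. Of these 5, miR-145a-5p was at 0 in both 3'RR-deficient LPS libraries, and no other listed marker was at 0 in any library. Of the 5 B-cell microRNAs, miR-150-5p (21579 CPM) and miR-181a-5p (18496 CPM) were lower in the Eµ-deficient than in the other NS libraries. There miR-155-5p (8083 CPM) was higher, and both miR-142a arms were inside the range of the others. With LPS, miR-155-5p (100741 CPM) was above and miR-142a-5p (33148 CPM) below the other libraries, with the rest inside their range. The part of B-cell subsets and of other cells in the levels of miR-152-3p and of the other members was not tested.

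The microRNAs whose log2 levels were most like those of the 3p arms over the 10 libraries differed between members, in a comparison with 321 mature rows of at least 10 CPM on average. For miR-148a-3p they were miR-27b-5p (r = 0.977), miR-9-3p (0.966) and miR-20a-5p (0.964). For miR-148b-3p they were miR-1198-5p (r = 0.947), miR-151-3p (0.933) and miR-1981-5p (0.927). For miR-152-3p they were miR-144-5p (r = 0.885), miR-451a (0.826) and miR-138-5p (0.804). Of these, miR-451a is a listed erythroid marker, and miR-144-5p is the other arm of the listed erythroid miR-144-3p. Between miR-148a-3p and miR-148b-3p r was -0.799. These coefficients describe points that share the LPS contrast and the second NS libraries.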

How the data were processed

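Small RNA of 10 libraries was sequenced by the authors with 75 nt reads after 17 PCR cycles. The deposited values are whole-number read counts per feature, without normalization, and the submitters' processing notes name cutadapt 1.2.1, Bowtie2 and mm10. The counting rule and the handling of multiple matches are not given in the sources used here. From these counts, the microRNA class (2015 rows) was tested with edgeR 4.0.16 in R 4.3.3 (TMM, filterByExpr by group, quasi-likelihood F-test, Benjamini-Hochberg adjustment over all features tested, threshold 0.05). The 8 wt and 3'RR-deficient libraries shared a fit of group means or, for effects over both conditions or genotypes, an additive fit. All 10 libraries entered the Eµ-deficient comparison. The study states no test for these counts. Arm ratios used a prior count of 0.5 and single-library log2 ratios a prior count of 2. All 6 members were named, with, for each 3p arm, the 3 rows most like it. Members and lists were chosen with earlier results of these data known. Intervals of shares and count ratios, like the limit of 3 counts for a count of 0, reflect counting error alone, since PCR reads are not independent molecules, while intervals of edgeR fold changes come from the SE of the fit between libraries. The calculations were tested on simulated data. Alternatives comprised scaling, filters, DESeq2 1.42.0, row sets, replicate blocks, a loess correction for GC content (497 of 607 tested mature rows, 81.9%, have a sequence) and libraries left out.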

Additional observations from a re-analysis of the deposited data

How the results depend on the processing

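The number of members called for the LPS response was 1 within wt. It became 2 with no filter, with the DESeq2 Wald test, with the replicate block within culture condition, with the GC correction and without both second NS libraries, 3 with the GC correction and that block together, 0 with all features of the table, and 0 to 2 when a library was left out. Within 3'RR-deficient cells it was 1, with the same values of 2, 3 and 0 under these alternatives and changes with libraries left out. There, in the same order, 31 of 1799, 97 of 720, 183 of 720, 29 of 501, 132 of 501 and 0 of 3987 features were called. In both genotypes the fits that called more members also called more features than the main fits. Counts within a genotype from fits with libraries left out do not measure stability, since a group then has 1 library. Over both genotypes it was 2, 1 with all features of the table and 3 with the block within culture condition, the GC correction, both together and without both second NS libraries. Replicate numbers were not taken as pairing the samples, since not every correlation of replicate differences was over 0.1. The r was 0.666 between the NS groups and 0.111 between the LPS groups, but -0.055 between NS and LPS in wt and -0.208 in 3'RR-deficient cells. The crossed pairing in 3'RR-deficient cells, chosen after the data were seen, gave 2 members called, among 83 of 720 features. With the plain replicate block both LPS counts within a genotype stayed at 1. Over both genotypes miR-148b-3p passed with the GC correction (-2.03, adjusted p 0.0372), with the block within culture condition (-0.75, adjusted p 0.00762) and with both (-1.34). For Eµ-deficient against wt cells 0 members were called, and 1, miR-152-3p, with DESeq2 size factors, total count scaling, no filter, the 10 CPM filter, the DESeq2 Wald test, mature rows only, the GC correction and without both second NS libraries (0 to 1 with single libraries left out). The 10 alternatives other than single libraries left out called 12 to 156 features in that comparison, against 16 in the main fit. Values near 0 turned sign. For miR-148b-5p the LPS response in wt (-0.23) was 0.29 and 0.54 with the replicate block overall and within culture condition, 0.03 with the GC correction and the latter block, and -1.20 to 2.63 with a library left out. In 3'RR-deficient cells (0.38) it was -0.48 with all features, -0.01 with the GC correction, -0.05 with correction and block, -0.27 without both second NS libraries and -0.23 to 0.92 with 1 library left out, and over both genotypes (0.07) -0.80, -0.09, -0.02, -0.75 and -0.31 to 1.07. For miR-152-3p the range in wt was -1.09 to 0.51. The 3'RR value of miR-148a-3p (0.02) was -0.08 under DESeq2 size factors, total count scaling and DESeq2, -0.05 with the 10 CPM filter, -0.04 with mature rows and -0.50 to 0.86 with a library left out, and that of miR-148b-5p was -0.06 to 1.29. In Eµ-deficient cells the ranges with a library left out were -0.40 to 2.08 for miR-148a-5p, -0.60 to 2.66 for miR-148a-3p and -1.03 to 0.67 for miR-148b-5p, and miR-148b-3p was 0.12 without both second NS libraries. The arm ratio difference of miR-148a was 1.21 to 2.00 with single libraries left out and 2.36 without both second NS libraries, where that of miR-148b was -0.16. With single libraries left out it was 0.48 to 1.84 for miR-148b and -1.74 to -0.64 for miR-152. Over the other alternatives it was -1.24 to -0.36 for miR-152. The share of miR-148a-3p differed by 41.3 to 59.7 percentage points with single libraries left out, by 59.7 with wt and 3'RR-deficient libraries alone (exact adjusted p 0.114) and by 49.8 with splits within genotype (0.111), both at the smallest p their splits allow. The features called ranged over 0 to 182 (wt LPS response), 0 to 183 (3'RR-deficient), 71 to 336 (both), 0 to 10 (3'RR-deficient against wt over both conditions) and 1 to 156 (Eµ-deficient). Unless an alternative itself tests fewer rows or libraries, the cause was not tested. The wt and 3'RR-deficient groups had 2 pools each, with a biological coefficient of variation of 72.4% in the fit of group means. A missing call therefore does not show that a change was absent.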
